A study of Mus musculus with 23 samples.

Results

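Gc, Ambp, F3, P2ry1, Slc38a4 and Pigr lay about as far above baseline 14 days after caerulein injury of the mouse pancreas as they did at 7 days. These 6 genes, of 18512 gene symbols counted, were chosen by their fitted log2 fold changes at both days against BL in the same libraries, so their differences between time points are given as a description and carry no test. By the fitted fold changes, the pattern was true of all 6 genes with every mouse included. For Gc it was lost without 1 day 14 mouse, and only 2 of 7 day 14 mice reached the lowest day 7 level.

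RNA of the head of the pancreas was sequenced from 23 C57BL/6 mice, which were 6 to 8 weeks old and weighed 20 to 25 g. Injured mice had received caerulein at 50 µg/kg intraperitoneally, in 8 hourly injections on each of 2 consecutive days. Caerulein is a cholecystokinin analog that overstimulates acinar cells, the enzyme-secreting cells of the pancreas. The non-injured baseline group (BL) held 8 mice (4 female and 4 male), the day 7 group (d7) held 8 mice (4 and 4) and the day 14 group (d14) held 7 mice (3 and 4). The days were counted from 24 h after the last injection, per the study's methods, and 1 female d14 mouse that the study left out was not analysed here. The injected groups are compared with mice that were not injured, at 1 dose schedule, and the libraries hold all cells of the dissected tissue. Fewer cells of a type and less RNA per cell cannot be told apart in such bulk tissue.

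Total counts ran from 7059890 to 9567446 per library. Levels are given as CPM, the read count relative to library size, after scaling by the trimmed mean of M values (TMM), and a gene was called when edgeR's quasi-likelihood test with Benjamini-Hochberg adjustment gave an adjusted p of at most 0.05 and the fold was at least 1.5. Of 10 acinar markers, all were detected, and their summed level ran from 311511 to 444994 CPM in BL, from 176186 to 273676 in d7 and from 282850 to 342437 in d14. Scaling by total counts instead of TMM moved the median log2 fold change of all tested genes to 0.48 at d7 against BL, to 0.22 at d14 against BL and to -0.26 at d14 against d7. On that scale, and relative to those medians, the log2 fold changes of the 6 genes ran from 0.64 to 1.83 at d7 and from 0.85 to 1.93 at d14.

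The library of d14 mouse 19, a female, stood apart. It held 3421 counts of Alb, which encodes serum albumin, the main secretory product of hepatocytes. The next highest d14 library, that of the male mouse 21, held 230. The 19 hepatocyte markers examined summed to 1.92 to 12.9 CPM in BL, to 2.09 to 24.7 in d7 and to 1.05 to 5.30 in the other 5 d14 mice, against 87.7 in mouse 21 and 879 in mouse 19. Outside mice 19 and 21, Cyp2e1 reached the highest counts of the 19, at 94 in BL, 225 in d7 and 24 in d14. No other marker exceeded Alb there, which reached 16, 28 and 19 counts. Where they are high, the sums outside mice 19 and 21 thus rest largely on Cyp2e1. They were also high where the 7 adipocyte markers examined were high. Mouse 5 had the highest BL value of both sums, at 12.9 and 98.4 CPM. The highest d7 values of both were those of mice 10, 14 and 15. In d14 the adipocyte sum was highest in mouse 21, at 108 CPM, and next highest in mouse 19, at 55.6. The part of adipocyte RNA in the hepatocyte sums was not tested. All 19 markers had counts in mice 19 and 21, whereas 12 of the 19, among them the fibrinogen chains Fga, Fgb and Fgg, were at 0 in all of the other 5 d14 mice. Mouse 19 was also the d14 mouse with the highest level of each of the 6 genes. The d14 fold changes reported for the 6 genes and for the named genes of their lists are therefore given with and without this mouse. Its part in the values of the 6 genes beyond those differences was not tested.

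**Figure D1:**
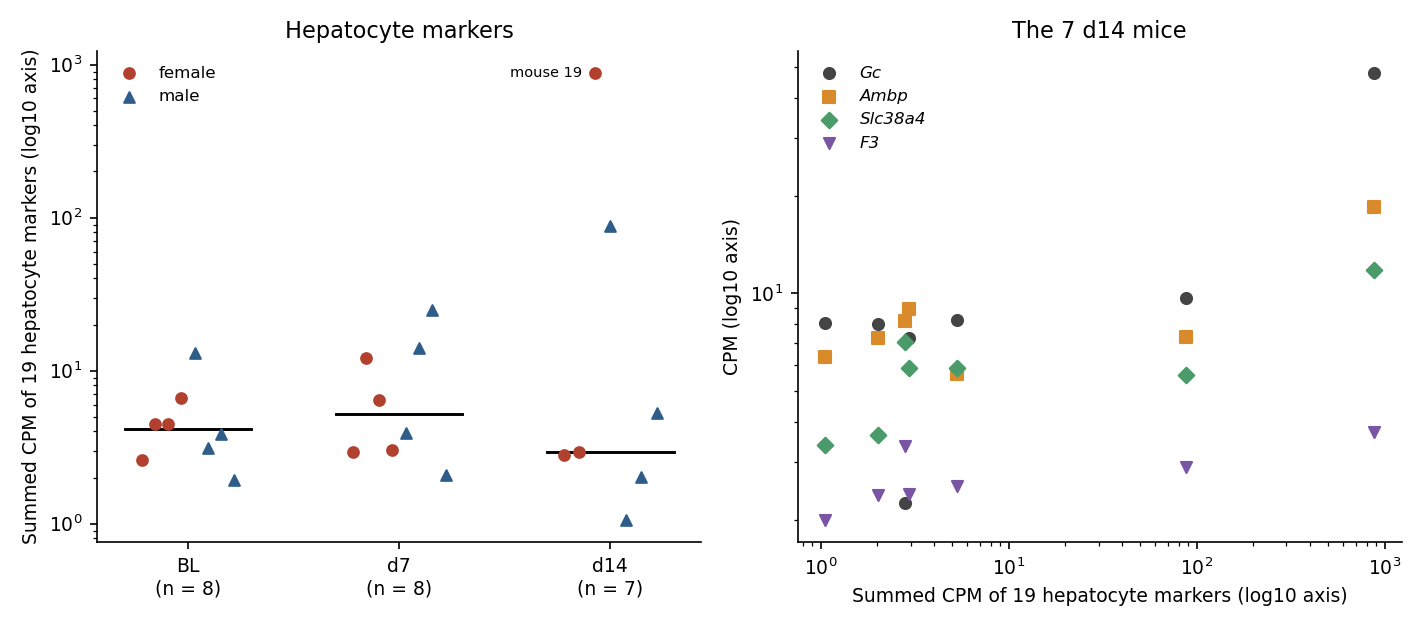
Summed CPM of 19 hepatocyte markers in each mouse (left, log10 axis, bars at medians) and CPM of 4 of the genes against that sum in the 7 d14 mice (right, both axes log10). Mouse 19, at 879 CPM, lies far above every other mouse, and mouse 21 follows at 87.7; Gc reaches 47.7 CPM in mouse 19 and does not exceed 9.67 in the other d14 mice.

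The 6 genes belong to separate systems. Gc encodes the vitamin D-binding protein, a plasma carrier of vitamin D metabolites and actin that the liver secretes and islet alpha cells also express. Ambp encodes a precursor that is cleaved into alpha-1-microglobulin, a heme-binding plasma protein, and bikunin, the protease-inhibiting chain of the inter-alpha-trypsin inhibitors. F3 encodes tissue factor, the membrane protein that binds factor VII and starts blood coagulation. P2ry1 encodes a G protein-coupled receptor for ADP. Slc38a4 encodes a sodium-coupled carrier of neutral amino acids. Pigr encodes the polymeric immunoglobulin receptor, which carries dimeric IgA across epithelial cells into secretions, pancreatic juice among them.

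Per kilobase of exon, Ambp had the highest mean level of the 6 in BL, at 2.67 ± 0.45 CPM per kb (SD, n = 8), followed by Gc at 1.90 ± 0.88, Pigr at 1.12 ± 0.45, Slc38a4 at 0.68 ± 0.10, F3 at 0.49 ± 0.19 and P2ry1 at 0.40 ± 0.14. The ranges of neighbours in this order overlapped in every case. These levels placed Ambp at the 56.6th percentile of 11765 genes with a known length and P2ry1 at the 10.4th. In d7 Gc came to 6.68 ± 1.23 CPM per kb and Ambp to 5.66 ± 1.30, and the lowest Ambp value, 3.59, was above the highest Pigr value, 2.95. The plasma carriers Gc and Ambp thus formed an upper pair in d7 whose ranges lay apart from those of the other 4 genes.

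The plasma protein genes are Gc and Ambp. When mouse 19 was left out, the log2 fold change at d14 moved by far the most for Gc. That of Ambp, from 1.24 to 0.998, moved only slightly more than that of Slc38a4, from 1.08 to 0.86. Gc (chr5:89417522-89457898 of GRCm38, minus strand) had a lowest, median and highest level of 0.864, 3.35 and 6.77 CPM in BL, of 8.32, 12.4 and 15.1 CPM in d7, and of 2.24, 8.09 and 47.7 CPM in d14. Every d7 mouse was above every BL mouse. In d14, mouse 19 was far above all other mice, the female mouse 17 was within the BL range, and the other 5 mice lay between 7.29 and 9.67 CPM, above every BL mouse. The log2 fold change was 1.85 at d7 and 1.92 at d14 with all mice, and 1.86 and 0.99 without mouse 19, so that the difference of d14 from d7 went from 0.07 to -0.87. Without mouse 19, Gc thus kept 53.1% of its d7 log2 fold change, and without mice 19 and 21 it kept 49.9%. By these values Gc did not meet the rule by which it was chosen once that mouse was left out.

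The window around a half-site of the HNF1 motif in the Gc promoter is shown because HNF1 factors are known regulators of liver and islet genes. The half-site was searched as GTTAAT on both strands of the promoters of RefSeq (250 bases before to 50 after each start, GRCm38.p6), and 7.10% of 32851 promoters held it. It was in none of the other 7 promoters of the 6 genes. This motif and those that follow were chosen after the promoter sequences had been seen, and a match is a description of letters, not a site at which a factor was shown to bind. The match, in capitals, began 52 bases before the Gc start, in chr5:89457937-89457958, read on the minus strand.
Gc: gtgacaaaGTTAATgattaaaa

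Ambp (chr4:63143275-63154799, minus strand) had a lowest, median and highest level of 2.76, 3.69 and 4.70 CPM in BL, of 5.06, 7.62 and 11.2 CPM in d7, and of 5.63, 7.31 and 18.4 CPM in d14. No injured mouse, on either day, was within the BL range. Mouse 19 was the highest of all 23 mice, and the other 6 d14 mice, at 5.63 to 8.92 CPM, were within the d7 range. The log2 fold change of Ambp was 1.07 at d7 and 1.24 at d14, and 1.07 and 0.998 without mouse 19. Leaving out mouse 21 as well gave 1.07 and 0.98, so that Ambp kept 91.4% of its d7 log2 fold change without both mice. The Ambp promoter held 2 copies of AGGTCA, the half-site that many nuclear receptors bind, which 16.3% of the promoters held on either strand. The copy farther from the start lay 180 bases before the RefSeq start, in chr4:63154339-63154360, and is in capitals as its reverse complement. The span of Ambp given above also takes in a GENCODE transcript that starts upstream of the RefSeq start, so that this window lies within it.
Ambp: gggaaagtTGACCTttaatgaa

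F3 (chr3:121723537-121735048, plus strand), the coagulation starter, was counted at 4 to 35 reads per library, so that its levels have a wide counting error. The lowest, median and highest levels were 0.694, 1.03 and 2.10 CPM in BL, 1.54, 2.60 and 3.27 CPM in d7, and 1.99, 2.54 and 3.72 CPM in d14. In each injured group 6 mice were above every BL mouse, and the others overlapped with BL, whose highest mouse was the male mouse 5. The log2 fold change of F3 was 1.04 at d7 and 1.13 at d14, and 1.04 and 1.05 without mouse 19. Without mice 19 and 21 it was 1.03 and 1.01. The F3 promoter held 2 copies of the AP-1 motif, searched as TGANTCA on both strands and held by 7.81% of the promoters, separated by 4 bases. They are shown in capitals because this neighbouring pair lies before the start of a gene known to be induced by injury signals (chr3:121723389-121723410, plus strand, first copy 146 bases before the start).
F3: gtTGAATCAcggtTGAGTCAcc

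P2ry1 (chr3:61002795-61008982, plus strand), the ADP receptor, was counted at 6 to 41 reads per library. Its lowest, median and highest levels were 1.04, 1.79 and 2.76 CPM in BL, 1.57, 3.53 and 4.57 CPM in d7, and 2.15, 3.70 and 4.25 CPM in d14. All d7 mice but the female mouse 10 were above every BL mouse, as were 5 of 7 d14 mice, and the male mouse 21 was the lowest of d14. The log2 fold change of P2ry1 was 0.93 at d7 and 1.02 at d14, and 0.92 and 0.99 without mouse 19. Without mice 19 and 21 it was 0.92 and 1.07. The annotation places an antisense gene, Gm37035, over P2ry1, and 21.4% of the 75-base windows of P2ry1 transcripts also occurred in transcripts of other genes on either strand. Whether counting used strand is not given in the sources used here, so reads of P2ry1 and of the antisense gene cannot be told apart.

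Slc38a4 (chr15:96994820-97055956, minus strand), the amino acid carrier, had a lowest, median and highest level of 2.44, 2.75 and 3.70 CPM in BL, of 4.40, 6.06 and 7.94 CPM in d7, and of 3.40, 5.85 and 11.8 CPM in d14. Every d7 mouse was above every BL mouse. In d14 the males 22 and 23, at 3.40 and 3.64 CPM, were within the BL range, 4 mice lay between 5.59 and 7.06 CPM, and mouse 19 was above all. The log2 fold change of Slc38a4 was 1.05 at d7 and 1.08 at d14, and 1.04 and 0.86 without mouse 19. It kept 82.3% of its d7 log2 fold change without mouse 19 and 80.0% without mice 19 and 21. Of the motifs searched, the 3 Slc38a4 promoters held the GC box alone, searched as GGGCGG on both strands and held by 35.7% of the promoters, with 1 copy in each of 2 promoters. The GC box was also in the promoters of F3, with 3 copies, and P2ry1, with 2 copies.

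Pigr (chr1:130826684-130852249, plus strand), the IgA transporter, had a lowest, median and highest level of 2.75, 4.18 and 8.40 CPM in BL, of 4.11, 6.55 and 11.9 CPM in d7, and of 5.74, 6.42 and 13.2 CPM in d14. Only 2 mice of each injured group were above every BL mouse, all of them female. The log2 fold change of Pigr was 0.69 at d7 and 0.87 at d14, and 0.68 and 0.79 without mouse 19. Without mice 19 and 21 it was 0.68 and 0.79 again. The Pigr promoter held the E-box CACGTG, which reads alike on both strands and was in 7.15% of the promoters, 71 bases before the start (chr1:130826605-130826626, plus strand). It is shown, in capitals, because E-box proteins are known regulators of this gene.
Pigr: gtggcagtCACGTGatctggct

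**Figure D2:**
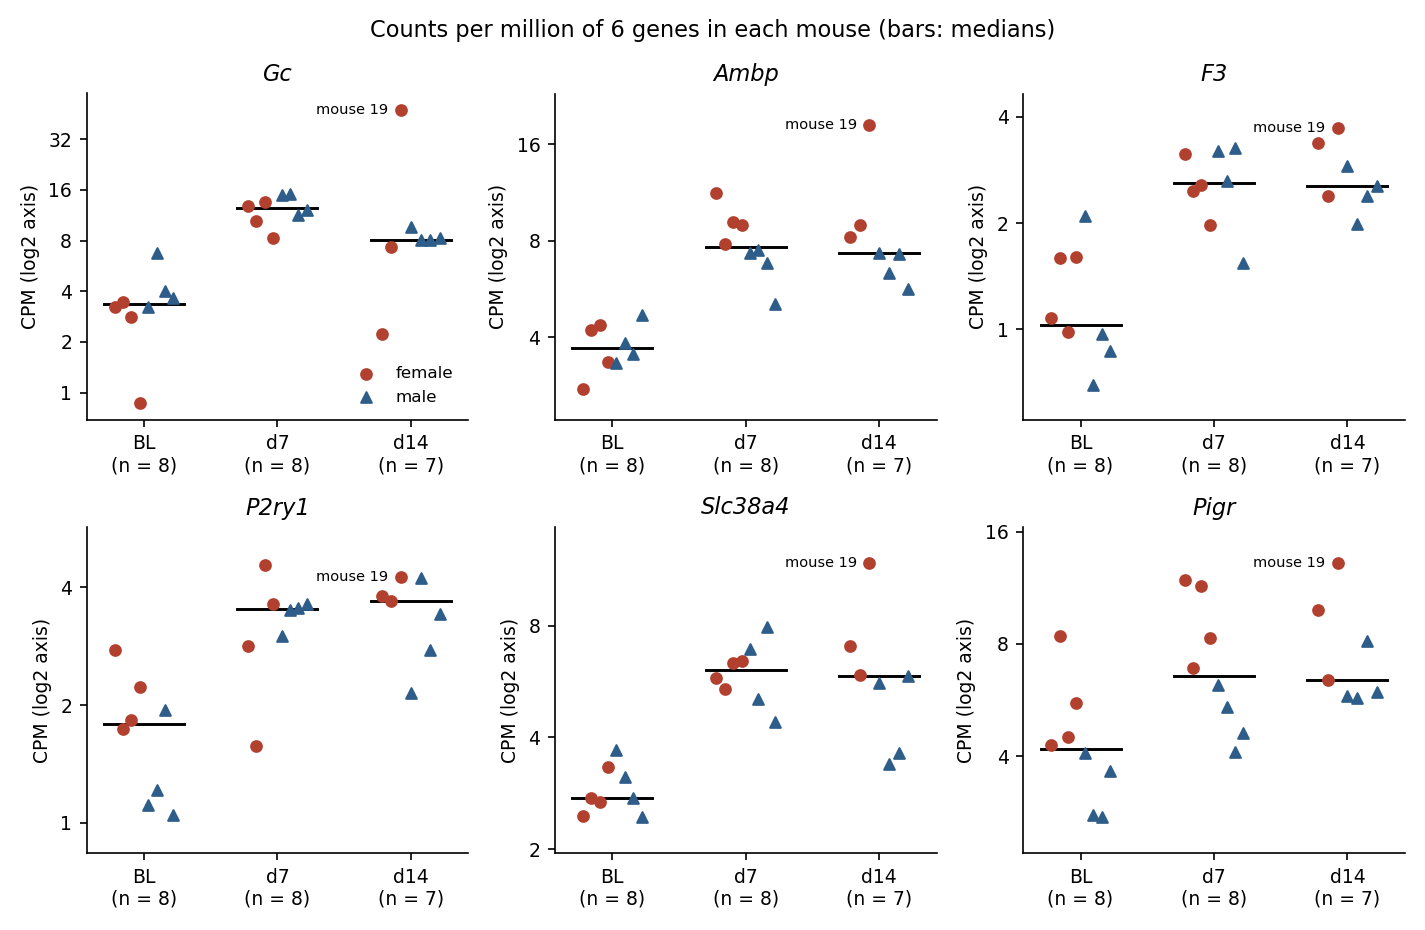
CPM (log2 axis) of the 6 genes in each mouse of BL, d7 and d14, with females as circles, males as triangles and bars at the medians. Mouse 19 is the highest d14 mouse in each panel, at 47.7 CPM for Gc and 18.4 for Ambp, while the medians of d7 and d14 lie close together except for Gc, at 12.4 and 8.09 CPM.

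Of the 6 genes, 6 were called higher at d7, where 3.82% of the 12195 tested genes were called higher, and 5 were called higher at d14, where 0.697% were. Gc was the gene not called at d14, but it was called there by DESeq2 with and without a prior on fold changes, with total count scaling, and without d14 mouse 17. Pigr was not called at either day without sex as covariate, nor at d7 by DESeq2 with the prior, where its log2 fold change was 0.52. Without mouse 19, 5 were called at d14, against 0.473% of genes, and without mice 19 and 21 it was 4, against 0.43%, F3 being the further gene not called. The direct comparison of d14 with d7 called 0 of the 6, against 0.377% of all genes in either direction. These counts restate the rule of choice and are no support for it.

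For part of the 6 genes, injured and BL mice did not overlap, although the gaps were narrow. For Ambp the lowest d7 mouse was at 5.06 CPM and the highest BL mouse at 4.70. The genes were chosen for being above BL, so this is a description. All d7 mice were above all BL mice for Gc, Ambp and Slc38a4, a separation that 1.16% of the tested genes showed. All d14 mice were above all BL mice for Ambp alone, a separation of 0.435% of the tested genes, and of 0.522% when mouse 19 was left out.

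**Figure D3:**
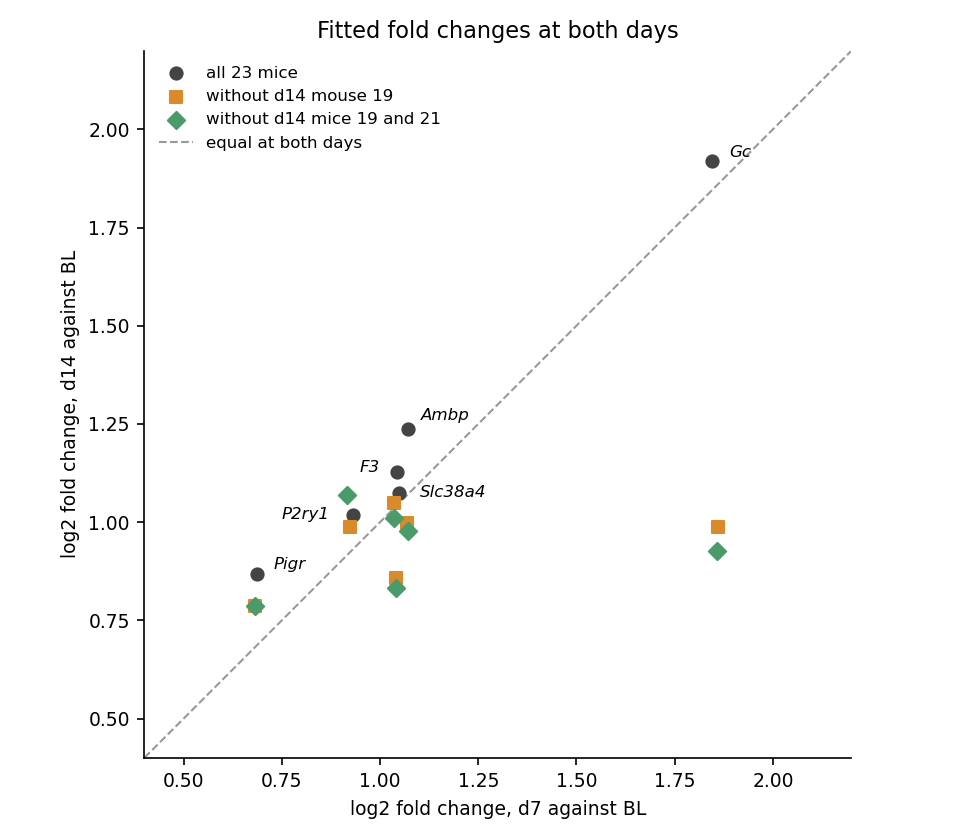
Log2 fold change at d7 (horizontal) and at d14 (vertical) against BL for the 6 genes, fitted with all 23 mice, without d14 mouse 19, and without d14 mice 19 and 21; the dashed line marks equal values. With all mice the 6 genes lie on or just above the line, and without mouse 19 Gc drops from 1.92 to 0.99 on the vertical axis while F3 goes from 1.13 to 1.05.

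Among all tested genes, 65 (0.533%) were called higher at both days, and for most of them the d14 value was the smaller, the median ratio of the d14 to the d7 log2 fold change being 0.858. In 18 of the 65 genes (0.148% of those tested) the ratio was at least 1, namely 5 of the 6 genes, 7 small nucleolar RNAs and 6 others. Just outside the ratio of 1 lay A230001M10Rik at 0.992, Tmem229a at 0.980 and the U12 small nuclear RNA Rnu12 at 0.970. Just inside it lay Slc38a4 at 1.03, the small nucleolar RNAs Snora24, Snora62 and Snora41 at 1.03, 1.05 and 1.06, and F3 at 1.08. The largest ratio of the 6 genes was 1.27, for Pigr. Without mouse 19, 17 of the 65 genes had a ratio of at least 1. They held 3 of the 6, which were F3, P2ry1 and Pigr.

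The partners of the 6 genes were examined as lists, beside the median log2 fold changes of all tested genes, 0.02 at d7 and 0.01 at d14. In the coagulation and fibrinolysis list of F3, 5 of 16 tested genes were called higher at d7 and 1 at d14, none was called lower, and the median log2 fold change was 0.64 at d7 and 0.35 at d14, or 0.18 at d14 without mouse 19. Plau, the urokinase plasminogen activator, was the gene called at both days, at a mean of 5.87 ± 1.33 CPM in BL (SD, n = 8), 10.3 ± 2.31 in d7 (n = 8) and 10.01 ± 2.30 in d14 (n = 7). Its log2 fold change was 0.80 ± 0.12 (SE) at d7 (adjusted p = 2.65e-05, edgeR) and 0.72 ± 0.12 at d14 (adjusted p = 0.00104, edgeR). Pros1, the anticoagulant protein S, rose by 0.83 ± 0.13 at d7 (adjusted p = 9.37e-05, edgeR) and stood at 0.46 ± 0.14 at d14 (adjusted p = 0.104). Plat, the tissue plasminogen activator, rose by 0.76 ± 0.19 at d7 (adjusted p = 0.00601, edgeR) and stood at 0.50 ± 0.20 at d14 (adjusted p = 0.25). Without mouse 19, Plau, Pros1 and Plat stood at 0.74, 0.40 and 0.52 at d14 (adjusted p = 0.00248, 0.254 and 0.328, edgeR). Tfpi, the inhibitor of the tissue factor pathway, and F13a1, the factor XIII transglutaminase, were the other genes called at d7. Fibroblast and stellate cell markers moved with this list, 7 of 8 being called higher at d7 and 3 at d14 (summed level 333 to 667 CPM in BL, 638 to 1201 in d7 and 537 to 762 in d14, none of the 8 at 0 in every mouse of a group), as did macrophage markers, 7 of 8 at d7 and 0 at d14 (summed level 42.0 to 130 CPM in BL, 79.9 to 174 in d7 and 61.1 to 104 in d14). Of the islet beta cell markers, 6 of 6 tested were called higher at d7 and 0 at d14. Their summed level was 102 to 401 CPM in BL, 345 to 986 in d7 and 302 to 654 in d14. Of the pancreatic duct markers, 2 of 8 were called higher at d7 and 0 at d14. The part of these cell types in the values of the list and of F3 was not tested.

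The lists around Ambp, Gc and P2ry1 held no called gene at either day. They were the inter-alpha-trypsin inhibitors and their partners (5 other genes tested), vitamin D transport and metabolism (6 tested) and the purinergic receptors and ectonucleotidases (11 tested). Their median log2 fold changes at d7 were 0.23, 0.19 and -0.06. At d14 the medians were -0.02, 0.30 and -0.03, and without mouse 19 they were 0.005, -0.03 and -0.01. Itih2, which encodes a heavy chain that bikunin binds, passed the adjusted p but not the fold, with log2 fold changes of 0.41 ± 0.07 at d7 (adjusted p = 0.000198, edgeR) and 0.42 ± 0.07 at d14 (adjusted p = 0.00157, edgeR). Without mouse 19 its d14 value was 0.40 (adjusted p = 0.00694, edgeR). In the same list, Itih5 and Spint1 passed the adjusted p at d7 alone, in opposite directions. Itih5 stood at 0.49 ± 0.13 (adjusted p = 0.00924, edgeR) and Spint1 at -0.35 ± 0.07 (adjusted p = 0.000747, edgeR). In the Gc list Rxra, and in the P2ry1 list P2ry14, also passed the adjusted p but not the fold at d7 alone, both lower. Rxra stood at -0.22 ± 0.07 (adjusted p = 0.0332, edgeR) and P2ry14 at -0.37 ± 0.09 (adjusted p = 0.00666, edgeR). Itih2, Itih5, Spint1, Rxra and P2ry14 were named after their values were seen. Vdr, the vitamin D receptor that acts on the ligand carried by the Gc product, stood at 0.47 ± 0.34 at d7 (adjusted p = 0.347, edgeR). At d14 Vdr stood at 0.68 ± 0.35 (adjusted p = 0.394, edgeR), and at 0.73 without mouse 19 (adjusted p = 0.469, edgeR).

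Of 8 tested genes of the SLC38 family other than Slc38a4, 1 was called, in the opposite direction. Slc38a5, a carrier of glutamine, histidine and other neutral amino acids, was at a mean of 202 ± 48.1 CPM in BL, 117 ± 19.8 in d7 and 153 ± 32.5 in d14. It fell by 0.76 ± 0.10 on the log2 scale at d7 (adjusted p = 8.05e-06, edgeR) and by 0.41 ± 0.10 at d14 (adjusted p = 0.0355, edgeR), where it missed the fold of 1.5. Without mouse 19 the log2 fold change of Slc38a5 at d14 was -0.39 and also missed the adjusted p (0.108, edgeR). The acinar markers moved with Slc38a5, 5 of 10 being called lower at d7 and 0 at d14, and their part in its fall was not tested. Slc38a3, named after its values were seen, passed the adjusted p but not the fold at d7. It stood at -0.34 ± 0.08 at d7 (adjusted p = 0.0021, edgeR) and at -0.17 ± 0.08 at d14 (adjusted p = 0.321, edgeR).

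In the polymeric immunoglobulin list of Pigr, 1 of 4 tested genes was called. Fcgrt, the neonatal Fc receptor that carries IgG, rose by 0.89 ± 0.26 at d7 (adjusted p = 0.0179, edgeR) and stood at 0.52 ± 0.27 at d14 (adjusted p = 0.421). Without mouse 19 it stood at 0.47 at d14 (adjusted p = 0.596, edgeR). Jchain, the joining chain of the IgA dimers that Pigr carries, had a mean of 11.3 ± 13.5 CPM in BL, 12.8 ± 14.96 in d7 and 5.44 ± 7.35 in d14, an SD above its mean in each group. The genes of immunoglobulin heavy and light chains were not analysed here.

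The plasma proteins made by liver, Gc and Ambp set aside, had 3 of 16 tested genes called higher at d7 and 1 at d14. Those at d7 were Apoe, the apolipoprotein E gene that macrophages also express, at 0.97 ± 0.27 (adjusted p = 0.0159, edgeR), Serpina10, a protease inhibitor of factor X, at 1.18 ± 0.31 (adjusted p = 0.0103, edgeR), and Lbp, the lipopolysaccharide-binding protein, at 1.20 ± 0.27 (adjusted p = 0.00264, edgeR). Vtn of the same list, named after its values were seen, passed the adjusted p but not the fold at d7. It stood at -0.50 ± 0.13 (adjusted p = 0.00761, edgeR). The gene called at d14 was Alb, at 5.35 ± 1.29 (adjusted p = 0.0417, edgeR), and it was lost without mouse 19, at 2.01 (adjusted p = 0.29). Without that mouse 0 of the list were called at d14 and its median log2 fold change went from 0.55 to 0.14. Only 2 of the 19 hepatocyte markers had counts enough to be tested, of which 0 were called at d7 and 1, Alb itself, at d14. The summed hepatocyte markers of d7, 2.09 to 24.7 CPM, overlapped with those of BL, and Cyp2e1 had the highest counts among them. The part of hepatocyte RNA in the d7 values of Gc and Ambp was not tested.

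The comparison of sexes did not enter the choice of the 6 genes. With the time point as covariate, Pigr was higher in females, by 0.77 ± 0.14 on the log2 scale (SE), which is 1.71-fold (adjusted p = 0.00303, edgeR's quasi-likelihood test with Benjamini-Hochberg adjustment). It was called, where 0.139% of all tested genes were called higher in females. In BL, where 2% of the tested genes had every female above every male, the 4 females lay at 4.30 to 8.40 CPM and the 4 males at 2.75 to 4.07, and in d7 the females lay at 6.89 to 11.9 and the males at 4.11 to 6.22. In d14 the 3 females, at 6.42 to 13.2, overlapped with the 4 males, at 5.74 to 8.16. Every female was thus above every male in BL and in d7, as in 13 genes of those tested (0.107%). Without mouse 19 the difference was 0.71 ± 0.14 (adjusted p = 0.0127), and without mice 19 and 21 it was 0.71 ± 0.14 (adjusted p = 0.0184). Without the time point as covariate it was 0.73 and no longer called (adjusted p = 0.142), and over all alternatives the adjusted p ran from 0.000194 to 0.142.

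**Figure D4:**
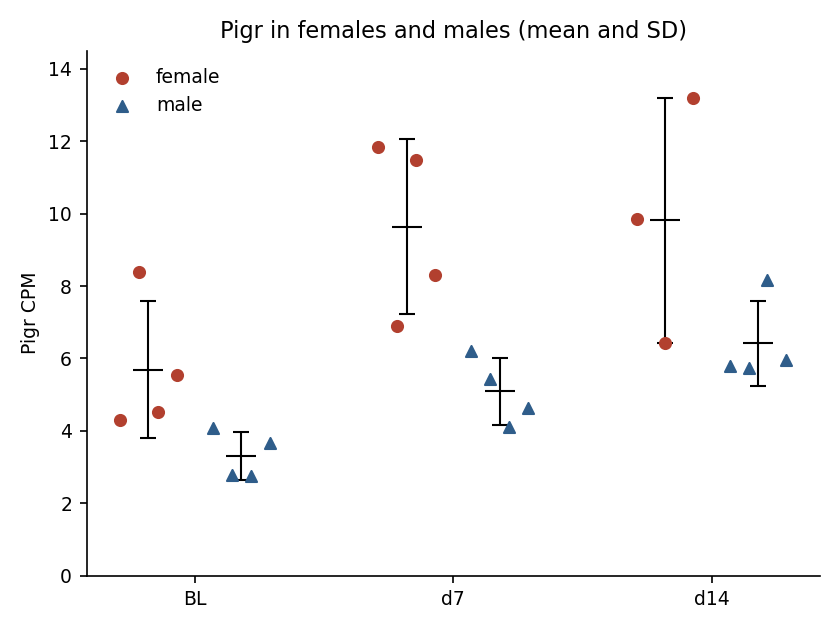
Pigr CPM of each female (circles) and male (triangles) in BL, d7 and d14, with means and SD as error bars. Females and males do not overlap in BL (4.30 to 8.40 against 2.75 to 4.07 CPM) or in d7, and overlap in d14.

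No other gene of the 6 passed the test of sex. Ambp was next, at 0.46 ± 0.14 (adjusted p = 0.185, edgeR), and 0.29 ± 0.11 without mouse 19 (adjusted p = 0.386). In d7 every Ambp value of the females, at 7.79 to 11.2 CPM, was above every value of the males, at 5.06 to 7.45, and in d14 the females, at 8.18 to 18.4, were above the males, at 5.63 to 7.31. In BL the sexes overlapped, at 2.76 to 4.37 CPM in females and 3.33 to 4.70 in males. Every female was above every male in 1.89% of the tested genes in d7 and in 4.07% in d14. The other genes had adjusted p-values of 0.723 (Slc38a4), 0.764 (P2ry1), 0.931 (F3) and 0.976 (Gc) in edgeR's test.

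Whether the response to injury differed between the sexes was tested as an interaction of sex and day. Of the 6 genes 0 were called at d7, where 0.0082% of all tested genes were, and 0 at d14, where 0 genes were called by edgeR, 460 had an unadjusted p under 0.05 and DESeq2 called 0. The interactions with the smallest unadjusted p were those of Ambp and Slc38a4 at d14, where the female response exceeded the male one by 0.90 ± 0.33 and 0.93 ± 0.35 on the log2 scale (edgeR, adjusted p = 0.999984 for each, unadjusted values 0.0119 and 0.0128). The d14 side of both differences holds 3 females and 4 males, and without mouse 19 the differences were 0.43 for Ambp and 0.59 for Slc38a4.

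The spread within time points was used to ask which of the 6 genes varied together from mouse to mouse, after the mean of each time point had been subtracted. Of 15 pairs, 2 were called by a two-sided permutation test with Benjamini-Hochberg adjustment over the pairs. F3 and Slc38a4 had a Pearson r of 0.61 (n = 23, p = 0.00019, adjusted p = 0.00285) and a Spearman rho of 0.64 (permutation p = 0.00143, adjusted p = 0.0214). The r was 0.56 without the 2 mice farthest from the median, 0.59 without mouse 19 (adjusted p = 0.0156, permutation test) and 0.63 after the means of each sex were subtracted too (adjusted p = 0.0288). Ambp and Pigr had an r of 0.62 (permutation p = 0.00128, adjusted p = 0.0096) and a rho of 0.55 (permutation p = 0.00881, adjusted p = 0.0661), with an r of 0.46 without the 2 farthest mice. This pair was no longer called without mouse 19 (r = 0.54, adjusted p = 0.127, permutation test) or after the means of each sex were subtracted (r = 0.56, adjusted p = 0.221), the latter an alternative chosen after seeing the data. All counts entering F3 are small, and each pair shares the libraries and their scaling.

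**Figure D5:**
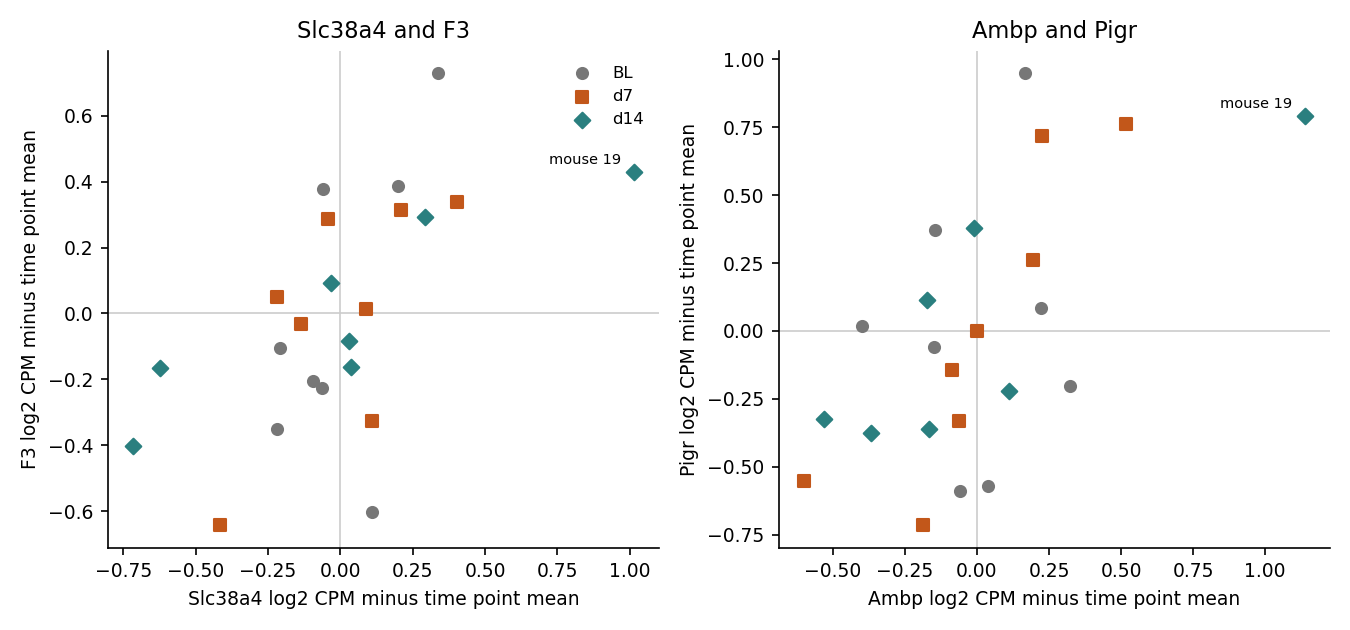
Log2 CPM minus the time point mean for Slc38a4 and F3 (left) and for Ambp and Pigr (right), 1 point for each of 23 mice. The points of Slc38a4 and F3 lie along a rising band in all 3 time points (r = 0.61), and mouse 19 is the point farthest to the right in both panels.

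Each of the 6 genes was also compared, within each time point, with the summed markers of hepatocytes and of islet alpha cells, in 36 relations tested by exact permutation of the mice. None was called after adjustment, the smallest adjusted p being 0.1375. In d14, Gc had an r of 0.80 with the hepatocyte sum (n = 7, rho = 0.68, exact permutation p = 0.0274 for r and 0.11 for rho, adjusted p = 0.329 and 0.544), which became -0.08 without the 2 mice farthest from the median, and so rested on those mice. For Ambp, r was 0.77 (n = 7, rho = 0.46, exact permutation p = 0.0744 and 0.302, adjusted p = 0.371 and 0.563) and became -0.13. For Slc38a4 in d14, r was 0.77 (n = 7, rho = 0.64, exact permutation p = 0.0508 and 0.139, adjusted p = 0.37 and 0.544) and stayed at 0.74, and for F3 it was 0.73 (n = 7, rho = 0.79, exact permutation p = 0.0617 and 0.048, adjusted p = 0.37 and 0.346) and became 0.50. The smallest p-values were those of the hepatocyte sum in BL with Slc38a4 (r = 0.87, n = 8, rho = 0.79, exact permutation p = 0.00419 and 0.0279, adjusted p = 0.1375 and 0.346), where r became 0.62, and with F3 (r = 0.83, n = 8, rho = 0.76, exact permutation p = 0.00764 and 0.0368, adjusted p = 0.1375 and 0.346), where r became 0.68. In BL, Cyp2e1 reached 94 counts and no other marker of the sum exceeded 16, so these relations may be with this 1 gene. The adipocyte sum, like the hepatocyte sum, was highest in BL mouse 5 and lowest in BL mouse 8. The part of Cyp2e1 and of adipocyte RNA in these relations was not tested. With the alpha cell sum, Gc in d14 had an r of -0.02 (n = 7, rho = -0.43, exact permutation p = 0.949 and 0.354, adjusted p = 0.949 and 0.563). The alpha cell markers summed to 34.8 to 154 CPM in BL, to 29.7 to 217 in d7 and to 23.8 to 196 in d14, and mouse 21 was the lowest of d14.

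Genes whose levels closely followed those of the 6, by Pearson r over 23 mice after subtraction of time point means, are given as a description over 12195 genes that share libraries and scaling. Nearest to Gc were the liver-enriched genes Afm (r = 0.78), which encodes afamin and lies in the same gene cluster as Alb and Gc, and Rgn (0.76), and without mouse 19 they were Amy2b (0.77), Afm (0.74) and Inpp1 (0.71). Nearest to Ambp was Slc40a1, the iron exporter ferroportin, with an r of 0.77, and 0.78 without mouse 19. P2ry1 was nearest to Ppm1l (0.72), Slc38a4 to Trappc4 (0.74) and Pigr to Flcn (0.79). Without mouse 19 the nearest genes of F3, P2ry1 and Pigr were Haus5 (0.84), Ccdc127 (0.75) and Camkk2 (0.79), while Trappc4 was again the nearest of Slc38a4 (0.72).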

How the data were processed

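Total RNA of the head of the pancreas was sequenced in 23 mice. According to the labels and the study's methods, the authors checked reads with FastQC, trimmed them with Trim Galore and cutadapt, aligned them to mm10 with STAR 2.5.2a and counted reads per gene with featureCounts; the deposited files hold raw read counts per gene symbol, without normalization. The annotation and the strand setting of the counting are not given in the sources used here. Low-count genes therefore carry counting error that scaling does not remove, and reads of overlapping genes cannot be separated.

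Counts of the 23 mice were fitted together in edgeR 4.0.16 (R 4.3.3, limma 3.58.1): TMM scaling, default filter on expression by time point (12195 of 18512 symbols tested), robust quasi-likelihood fit with time point and sex, Benjamini-Hochberg adjustment over all tested genes. Calls needed an adjusted p no higher than 0.05 plus a 1.5-fold difference, and for interactions the adjusted p alone. CPM used TMM-scaled library sizes, and log2 CPM for correlations had a prior count of 2. Permutation tests used all orders within a time point, or 100000 permutations for pairs. Gene positions came from GENCODE vM21 (GRCm38), and promoter sequences from RefSeq (GRCm38.p6), which held 8 promoters for 6 of 6 genes. The fit was tested on simulated data for day 14 against BL and for sex.

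Groups and sexes came from the sample labels, and no 2 libraries were identical. The 6 genes, the gene lists and the marker lists were chosen with earlier results of these data known. Genes named besides the 6 and Alb were the called genes of each list (if more than 3, those with the largest change at day 14), the 3 genes nearest to each of the 6 in pattern (of which a part is not reported here), the 3 genes called higher at both days with a ratio nearest to 1, and the defining markers. Vdr and the genes said to be named after their values were seen were named outside these rules. DESeq2 1.42.0, other scalings and filters, no covariate and leaving out each mouse were alternatives. Other computations used Python 3.11.15 (scipy 1.17.1, pandas 2.3.3, numpy 2.4.6), and plots matplotlib 3.10.9.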

Additional observations from a re-analysis of the deposited data

Results flagged for a closer look

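Dixon's criterion at 95% was applied in 24 groups of mice (the 6 genes, Alb and the summed hepatocyte markers, at each of 3 time points). It compared the highest or lowest mouse with the spread of its group. Chance alone passes it in about 1 of 20 groups if values are normally distributed. That was not tested for these CPM values, which were not log-transformed. The criterion was passed 5 times, and 4 of the 5 were d14 mouse 19. Gc was at 47.7 CPM in this mouse, against 9.67 in the next d14 mouse, and Ambp at 18.4 CPM against 8.92. Alb was at 364 CPM against 24.7, and the summed hepatocyte markers at 879 CPM against 87.7. Mouse 19 had been set apart by its Alb count, and Alb is 1 of the 19 markers summed. Its passes for Alb and for the sum therefore describe that choice and are not separate findings. The 24 groups share mice, so the number of passes cannot be weighed against the share due to chance. The fifth was the male BL mouse 5, whose summed hepatocyte markers were at 12.9 CPM, against 6.67 in the next BL mouse. In BL no marker but Cyp2e1, at up to 94 counts, exceeded the 16 counts of Alb. Mouse 5 also had the highest summed adipocyte markers of BL, at 98.4 CPM. F3, P2ry1, Slc38a4 and Pigr passed Dixon's criterion in no time point.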

How the results depend on the processing

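The day 7 and day 14 log2 fold changes of the 6 genes were positive under every setting run. Counts of called genes moved as follows. At day 7 against BL, 626 genes were called, 317 by DESeq2 with a prior on fold changes, 348 with at least 10 counts in every mouse and 3727 with total count scaling, and 509 to 815 without single mice. At day 14 against BL, 96 were called, 52 with the prior, 449 with total count scaling, 62 without mice 19 and 21 (chosen after seeing the data) and 65 to 104 without single mice. With at least 10 counts in every mouse 3 of the 6 genes could be tested, and 3 were called at each day. At day 14 against day 7, 46 genes were called, 30 with that filter, 477 with total count scaling, 22 without d14 mouse 22, 29 without d14 mouse 24, 23 without d7 mouse 15 and 22 to 57 overall without single mice. Between the sexes, 28 genes were called, 16 with that filter, 17 without the covariate (0 of the 6) and 25 to 33 without single mice. For sex by day 7, 1 gene was called, 19 by DESeq2, 0 without a filter and 0 to 7 without single mice. Under total count scaling 1 of 36 marker relations and 4 of 15 pairs were called; pairs called were 1 without mouse 19 and 1 with sex means subtracted.

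Differences of day 14 from day 7 changed sign under total count scaling, to -0.16 (Gc), -0.073 (Ambp), -0.16 (F3), -0.14 (P2ry1), -0.22 (Slc38a4) and -0.045 (Pigr), where the median of all genes was -0.26; relative to it all 6 were positive. Without mice 19 and 21 they were -0.93 (Gc), -0.092 (Ambp), -0.024 (F3), -0.21 (Slc38a4) and -0.37 (Alb). Without single mice they ran from -0.87 to 0.25 (Gc), -0.071 to 0.23 (Ambp), -0.031 to 0.17 (P2ry1) and -0.18 to 0.13 (Slc38a4). The difference of the sexes in Gc was -0.51 without mice 19 and 21 and ran from -0.53 to 0.27 without single mice; in Alb it ran from -0.20, without mouse 19, to 3.84, without mouse 21. Interactions that changed sign without single mice ran, for sex by day 7, from -0.057 to 0.23 (Slc38a4) and, for sex by day 14, from -0.058 to 2.46 (Gc), -0.27 to 0.41 (F3) and -0.42 to 0.10 (Pigr). Correlations that changed sign were, under total count scaling, Ambp and P2ry1 (0.0071) and F3 and P2ry1 (0.10); with sex means subtracted, Gc and P2ry1 (0.046), Gc and Pigr (0.27) and P2ry1 and Slc38a4 (-0.023); and without mouse 19, Gc and Ambp (-0.040), Gc and Slc38a4 (-0.33) and P2ry1 and Slc38a4 (-0.028). The cause of these changes was not tested. Counts of 4 to 41 per library limit F3 and P2ry1. No paired analysis was possible because each mouse number occurs in 1 group only.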
